A study of Rattus norvegicus with 4 samples.

Results

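The genes described here encode factors of the retinal determination network, namely Eya1, Eya2, Eya3, Eya4, Six2, Six4, Six5, Dach1 and Dach2. They are 9 of the 32883 genes in the deposited gene tables, and each was found there by its symbol (in that order ENSRNOG00000007590, ENSRNOG00000019203, ENSRNOG00000010396, ENSRNOG00000016627, ENSRNOG00000058827, ENSRNOG00000007250, ENSRNOG00000060146, ENSRNOG00000008834 and ENSRNOG00000004869). The genes were chosen with earlier results in view, on the difference between thoracic aorta perivascular fat and brown fat in adipocyte, fibroblast, mural and endothelial nuclei. Values of that difference are therefore a description and carry no test.

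Eya proteins are transcriptional coactivators that also have phosphatase activity. They have no DNA-binding domain of their own and reach DNA through proteins of the sine oculis family, such as Six4, which bind it with a homeodomain. Dach proteins, relatives of the Ski proto-oncogene product, act mostly as corepressors in the same network, and Pax factors often lie upstream. The network is best known from the developing eye, ear, kidney and skeletal muscle, and brown adipocytes share an embryonic origin in the somites with skeletal muscle.

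The data are single-nucleus RNA profiles. The fat around the chest part of the aorta, called taPVAT (thoracic aorta perivascular adipose tissue), gave 2 libraries. Subscapular brown fat, a classical brown depot called BAT, gave the other 2. All came from untreated male Dahl salt-sensitive rats (strain SS/HsdMcwiCrl) aged 16 weeks, labelled naive and of normal disease state. Each tissue had 2 rats, and the labels do not say whether the same rats gave both tissues. The tissue was snap frozen and about 50 mg went into each nuclei preparation.

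The 4 libraries held 63654436 to 158140959 unique molecular identifiers (UMIs, counts of captured RNA molecules), and taPVAT replicate 2 was the smallest. Nuclei were sorted into classes by marker genes that do not include the 9 genes, and UMIs were summed per class and library. A level is given as CPM, the UMIs of a gene per 1e6 UMIs of that class in that library. In the order taPVAT replicates 1 and 2, then BAT replicates 1 and 2, there were 25706, 9164, 23053 and 18054 adipocyte nuclei. The fibroblast nuclei numbered 1480, 652, 1460 and 959, the mural nuclei 1288, 344, 815 and 839, and the vascular endothelial nuclei 2574, 480, 1592 and 1556. Mural cells are the pericytes and smooth muscle cells of vessel walls. The classes carried their defining markers. Pdgfra was at 73.5 to 183 CPM in fibroblasts and at most 9.57 CPM in the other 3 classes, and Cdh5 was at 136 to 276 CPM in endothelial nuclei and at most 16.1 CPM elsewhere. Adipocyte transcripts were present in every class: Adipoq reached 431 CPM in the other 3 main classes against 228 to 374 CPM in adipocytes. Its level alone did not set adipocytes apart. For that reason low levels are, in most cases, set beside the level of markers of another class in the same nuclei. Any 2 libraries shared 0.754% to 1.19% of the barcodes of the smaller one.

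Eya1 and Eya4 stood higher in taPVAT than in BAT, Eya2 was highest in fibroblasts, and Dach1 was highest in vascular endothelial nuclei. Eya3 was spread evenly over the classes other than myeloid nuclei, where it was highest. Six4 was low and somewhat higher in adipocytes, while Six2, Six5 and Dach2 were very low. These patterns are shown for the 4 classes in the plot of CPM by gene.

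**Figure D1:**
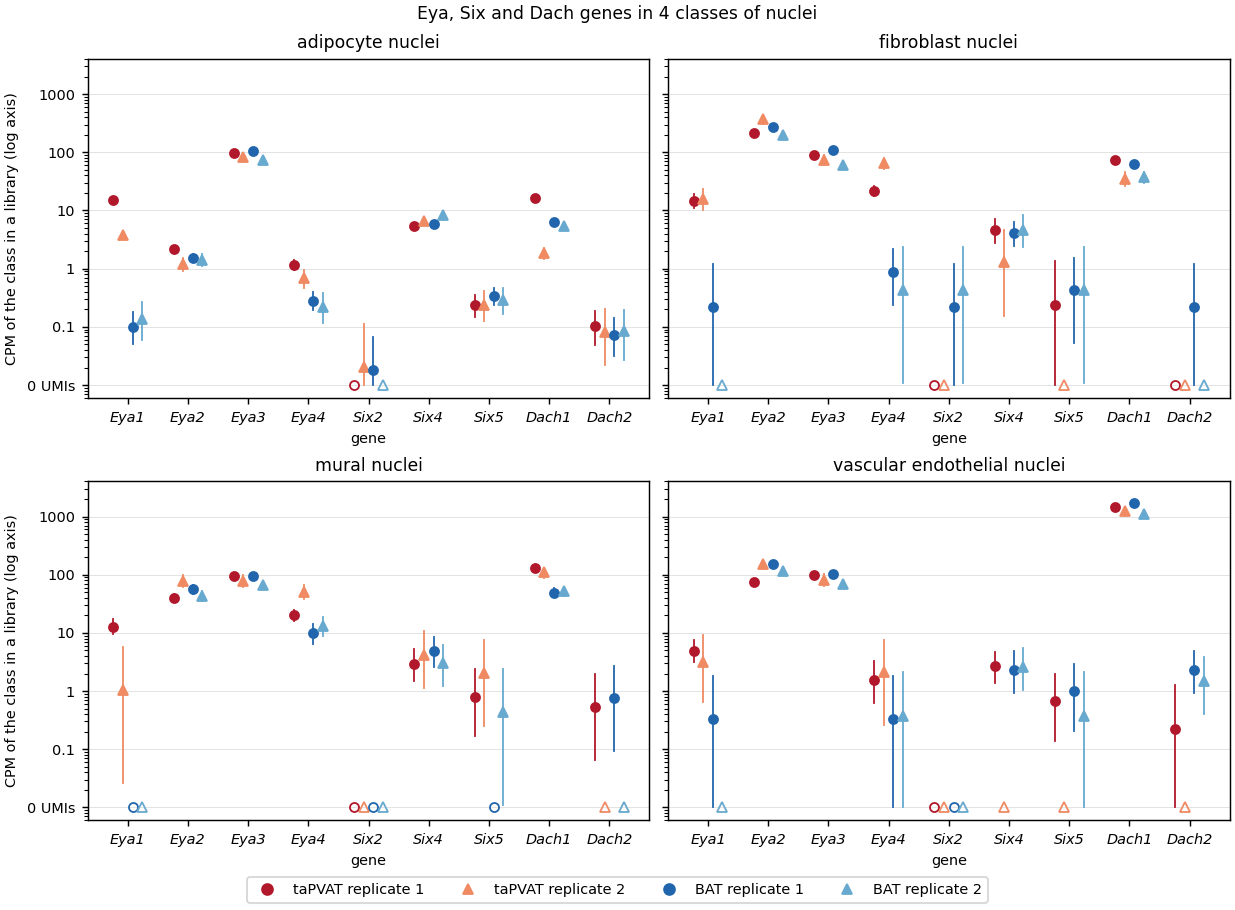
Level of the 9 genes in each library, in CPM on a log axis, for adipocyte, fibroblast, mural and vascular endothelial nuclei. Lines are exact 95% Poisson intervals of counting error, and open symbols mark 0 UMIs. The red and orange taPVAT symbols lie above the blue BAT symbols for Eya1 in all 4 classes and for Eya4 in all 4 classes, with 0 to 11 UMIs of Eya1 in each class of each BAT library.

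Eya1, a coactivator required for ear, kidney and branchial arch development, was at 15.3 and 3.81 CPM in taPVAT adipocytes, replicates 1 and 2, and at 0.101 and 0.135 CPM in BAT adipocytes, replicates 1 and 2. These are 1490 and 190 UMIs against 11 and 8. Both taPVAT libraries lay above both BAT libraries, while the taPVAT libraries themselves differed by more than their counting intervals. The fitted log2 fold change was 6.37 ± 0.84 (SE, n = 2 against 2), and the ratio of the pooled levels was 101 with a counting interval of 64.6 to 168. With 1 library left out at a time and under the other settings tried, the log2 fold change stayed between 5.06 and 7.02. In these sums, fewer expressing nuclei and less RNA per nucleus cannot be told apart. The level was uneven over adipocyte clusters. In taPVAT replicate 2, 167 of the 190 UMIs lay in the cluster led by Abcd4 and Ppargc1a, at 4.55 CPM. That cluster held 68.2% of the adipocyte nuclei of the library. The 2 clusters led by Chka, shared with BAT replicate 2, held 3 and 10 UMIs, at 0.854 and 1.55 CPM. In taPVAT replicate 1 the cluster led by Asic2 was at 17.6 CPM and that led by Aspg and Scd at 11.8 CPM. The 2 clusters led by Ehhadh held mostly nuclei of BAT replicate 1. There taPVAT replicate 1 was at 6.4 and 8.3 CPM (23 and 19 UMIs), and BAT replicate 1 at 0.0329 and 0.103 CPM. Intervals and limits of counts here and below cover counting error only. Nothing in the labels says how the 2 libraries of a tissue relate beyond coming from 2 rats, so errors describe these libraries only. The SE of a fitted fold change draws in part on the spread of other genes, so it is not the spread of the gene alone.

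In fibroblasts Eya1 was at 14.7 and 16.0 CPM in taPVAT (61 and 25 UMIs), and BAT had 1 UMI in replicate 1 and 0 UMIs in replicate 2. The count of 0 allows up to 1.27 CPM. The ratio of the pooled levels was 106, with a counting interval of 18.4 to 4217 because it rests on a single BAT UMI. In mural nuclei there were 48 and 1 UMIs in taPVAT (12.9 and 1.04 CPM) and 0 in both BAT libraries, so that the level was at least 17.3-fold higher when 3 UMIs over both BAT libraries are taken as the floor. That bound rests on taPVAT replicate 1, which held 48 of the 49 UMIs, and replicate 2 alone gives no fold. In vascular endothelial nuclei there were 22 and 3 UMIs in taPVAT (4.95 and 3.19 CPM) against 1 and 0 in BAT. Eya1 passed the filter on low counts in adipocytes and fibroblasts but not in the tissue fits of the other classes.

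The level of Eya1 outside adipocytes was set beside that of adipocyte RNA in the same nuclei. In taPVAT replicate 1, Eya1 stood at 96.2% of its adipocyte level in fibroblasts, 84.1% in mural nuclei and 59.9% in myeloid nuclei. The median of 11 adipocyte markers stood at 64.2%, 71.3% and 78.2% in the same nuclei. In T or NK lymphocytes of that library Eya1 was at 75.5% with a median marker of 81.3%. Eya1 lay within the range of the 11 markers in fibroblasts, mural nuclei and T or NK lymphocytes and below it in myeloid nuclei, where the lowest marker was at 73.2%. It lay above the highest marker in B lymphocytes (124% against 102%) and lymphatic endothelial nuclei (116% against 98.9%). The myeloid, B lymphocyte and lymphatic values rest on 30, 13 and 16 UMIs. Their counting intervals were 6.18 to 13.1, 10.1 to 32.4 and 10.1 to 28.8 CPM, against 15.3 CPM in adipocytes. These intervals reach into the marker range, so being below or above it is within counting error. Among vascular endothelial nuclei of that library Eya1 was at 32.4% of the adipocyte level, in the lower end of the marker range of 29.6% to 177%. In taPVAT replicate 2, Eya1 was at 419% of its adipocyte level in fibroblasts, from 25 UMIs, while the markers there ranged from 22.4% to 128% with a median of 36.4%. It was also above the highest marker in T or NK lymphocytes (111% against 95.5%, 3 UMIs), Schwann cells (112% against 106%, 1 UMI) and lymphatic endothelial nuclei (230% against 127%, 1 UMI). In mural nuclei of that library it was below the lowest marker, at 27.2% against 37.3%, from 1 UMI. B lymphocytes and mesothelial nuclei there had 0 UMIs of Eya1, with the lowest markers at 45.9% and 30.2%. These counts allow up to 28.2 and 12.8 CPM, above the adipocyte level of 3.81 CPM, so they are too small to place Eya1 against the markers. The counts of 1 and 3 UMIs in other classes of that library are also too small for this.

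Across classes, the order of the Eya1 means over 4 libraries was not resolved, since each class overlapped its neighbour. A fit over the 16 sums of the 4 main classes and 4 libraries, with the library as a term, compared each class with the mean of the other 3. Here edgeR's quasi-likelihood test was used with Benjamini-Hochberg adjustment over 12083 genes, and a gene is called at an adjusted p under 0.05. For Eya1 these contrasts rest on the taPVAT sums, which were used to choose the genes. In BAT each sum of fibroblast, mural or vascular endothelial nuclei held 0 or 1 UMI of Eya1, so the contrasts do not describe BAT. Eya1 in vascular endothelial nuclei was lower by a log2 fold change of -1.35 ± 0.54 (adjusted p = 0.0444). Without taPVAT replicate 1 this contrast was 0.02 (adjusted p = 0.987), so the call rests on that library. It was also lost with DESeq2 (adjusted p = 0.157), under a marker gate per nucleus (0.247) and without BAT replicate 2 (0.0692). Eya1 in fibroblasts was not called (log2 fold change 1.19 ± 0.43, adjusted p = 0.0549), and it became 2.31 (adjusted p = 0.0162) without taPVAT replicate 1. The level in adipocytes did not differ from the others beyond the threshold (0.33 ± 0.36, adjusted p = 0.432), but it was called higher without taPVAT replicate 2 (0.84, adjusted p = 0.0205).

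**Figure D2:**
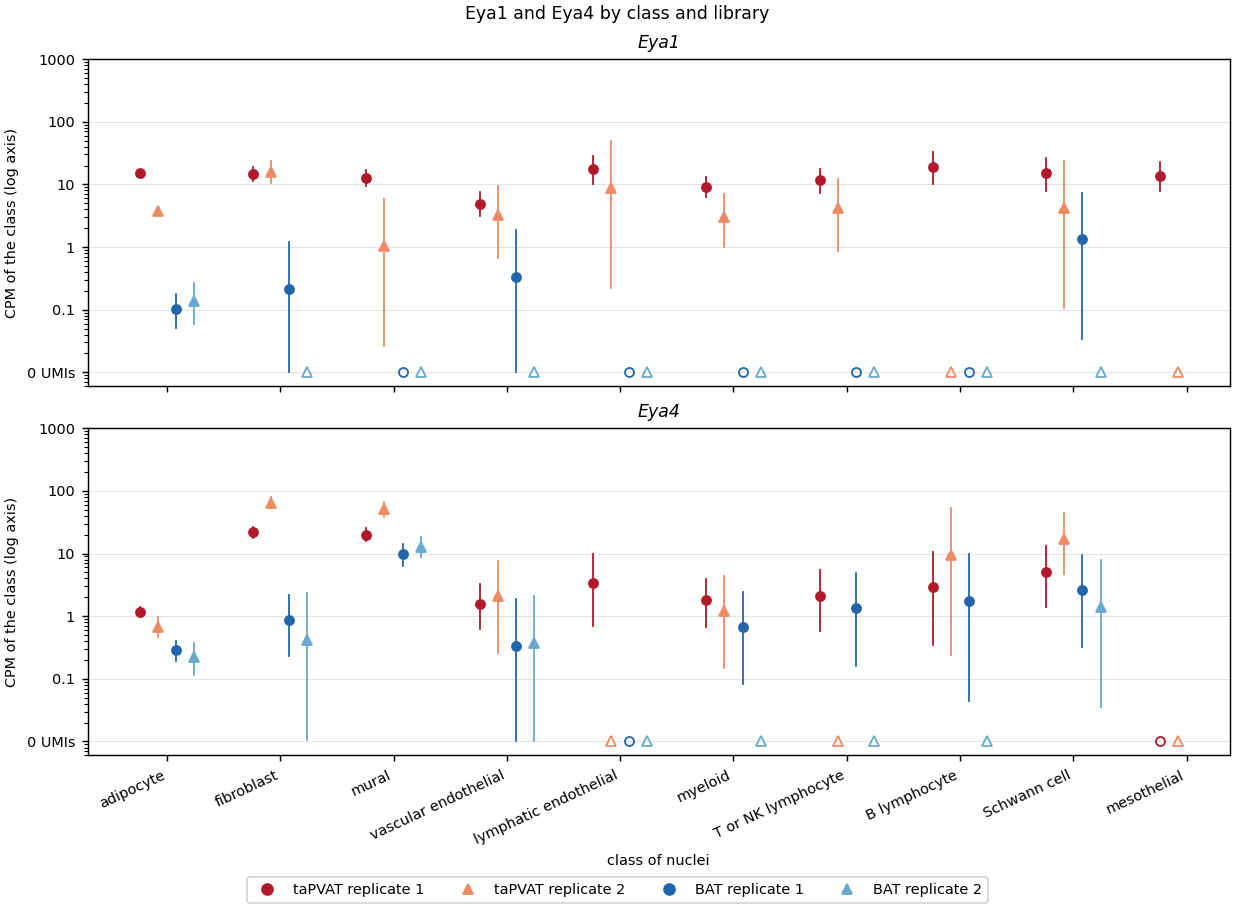
Eya1 (upper panel) and Eya4 (lower panel) in CPM on a log axis for 10 classes of nuclei, 1 symbol per library, with exact 95% Poisson intervals and open symbols for 0 UMIs. Eya1 lies between 4.95 and 18.9 CPM in all 10 classes of taPVAT replicate 1, while Eya4 reaches 21.7 and 64.5 CPM in taPVAT fibroblasts and is under 1 CPM in BAT fibroblasts.

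Eya4, a coactivator known from inherited hearing loss and from heart muscle, had its highest means in mural nuclei and fibroblasts. In fibroblasts it was at 21.7 and 64.5 CPM in taPVAT replicates 1 and 2 and at 0.861 and 0.423 CPM in BAT replicates 1 and 2. The UMIs were 90 and 101 against 4 and 1, and the tissues did not overlap. The fitted log2 fold change was 5.81 ± 0.77 (SE, n = 2 against 2) and lay between 4.86 and 6.41 under the other settings and with each library left out. The ratio of the pooled levels was 46.9, with a counting interval of 19.7 to 146. Of the taPVAT fibroblast nuclei, 5.14% (Wilson 95% interval 4.12% to 6.38%) and 12.0% (9.69% to 14.7%) had a UMI of Eya4, and of the BAT fibroblast nuclei 0.274% (0.107% to 0.702%) and 0.104% (0.0184% to 0.588%). Their median depths were alike, at 2000, 2055, 2188 and 1905 UMIs. After each nucleus was thinned to 1000 UMIs, with 10 to 102 shallower nuclei left out per library, the shares were 2.10% and 6.54% in taPVAT. In BAT they were 0 of 1408 nuclei in replicate 1, which allows up to 0.213%, and 0.109% in replicate 2. For comparison, 0% to 0.225% of T or NK lymphocyte nuclei, which had median depths of 1807 to 2138 UMIs, had a UMI of Eya4 after thinning. The thinned shares of BAT fibroblasts lay within that range. It rests on 131 to 529 nuclei per library with 0 to 4 UMIs of Eya4 before thinning, too few to fix a background level.

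The residual Eya4 of BAT fibroblasts was at 8.74% and 3.28% of the mural level in the same libraries, where the median of 11 mural markers in fibroblasts was 6.77% and 7.67%. In taPVAT fibroblasts Eya4 was at 108% and 127% of the mural level, with median mural markers at 9.84% and 10.3% and the highest marker at 59.3% and 66.4%. The fibroblasts of the tissues also differed in subtype markers. The summed level of 6 progenitor-type fibroblast markers (Pi16, Dpp4, Cd55, Anxa3, Sema3c and Wnt2, none at 0) was 607 and 793 CPM in taPVAT and 167 and 186 CPM in BAT. The sum of 9 mesothelial markers was 218 and 199 CPM in taPVAT fibroblasts and 67.8 and 58.3 CPM in BAT fibroblasts, with Krt19 at 0 in all, and Eya4 had 0 UMIs in the mesothelial nuclei of both taPVAT libraries. Split by a UMI of any progenitor marker, a look added after the data were seen, Eya4 was at 21.1 and 72.6 CPM in taPVAT nuclei with such a UMI and at 22.2 and 59.9 CPM in those without. In BAT it was at 0 UMIs in both libraries with such a UMI, which allows up to 3.66 and 5.37 CPM, and at 1.05 and 0.553 CPM without. The log2 ratio of mean levels was 5.68 in nuclei without such a UMI and 6.07 in all fibroblasts. At this depth a nucleus without such a UMI may still express the markers, and the part of the subtype difference in that of Eya4 was not tested.

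In mural nuclei Eya4 was at 20.1 and 50.9 CPM in taPVAT and 9.84 and 12.9 CPM in BAT, and the tissues did not overlap. The fitted log2 fold change was 1.54 ± 0.50, and it was 0.78 at its lowest, without taPVAT replicate 2. The ratio of the pooled levels was 2.34 (counting interval 1.70 to 3.27). Mural nuclei formed 2 clusters, 1 led by the pericyte genes Abcc9 and Rgs5 and 1 led by the smooth muscle genes Myh11 and Acta2. The first held 90.9% and 95.6% of mural nuclei in taPVAT and 81.6% and 84.5% in BAT. Eya4 was found almost entirely in it: the cluster led by Myh11 had 1 UMI in taPVAT replicate 1 and 0 in the BAT libraries, and taPVAT replicate 2 had too few nuclei in it for a value. Within the cluster led by Abcc9 and Rgs5, Eya4 was at 22.2 and 52.7 CPM in taPVAT and at 12.5 and 14.8 CPM in BAT, so that the tissues did not overlap there either. The sum of 7 pericyte markers in mural nuclei was 2439 and 4446 CPM in taPVAT and 1998 and 2107 CPM in BAT, and that of 7 smooth muscle markers was 1200 and 1545 CPM against 2441 and 2456 CPM.

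In adipocytes Eya4 was low, at 1.17 and 0.683 CPM in taPVAT and 0.284 and 0.220 CPM in BAT (114, 34, 31 and 13 UMIs), with a fitted log2 fold change of 1.90 ± 0.47. The tissues did not overlap. In taPVAT this was 5.39% and 1.06% of the fibroblast level, and 9 fibroblast markers had medians of 3.48% and 1.98% in the same adipocytes, with ranges of 0.922% to 6.04% and 0.532% to 3.06%. The Eya4 level in taPVAT adipocytes thus lay within the range of fibroblast markers. The vascular endothelial nuclei had 7, 2, 1 and 1 UMIs. In taPVAT these were 7.26% and 3.30% of the fibroblast level, within the range of the fibroblast markers there.

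Against the other main classes, Eya4 was higher in mural nuclei by a log2 fold change of 3.45 ± 0.51 (adjusted p = 1.7e-04, edgeR). The mural value was 2.84 under the marker gate. In fibroblasts the fit gave 2.34 ± 0.52 (adjusted p = 0.0043). That value averages both tissues and rests on the taPVAT fibroblasts, which were used to choose the genes. BAT fibroblasts, at 0.861 and 0.423 CPM, were below BAT mural nuclei and near BAT endothelial nuclei (0.332 and 0.376 CPM). A higher level in BAT fibroblasts is thus not shown. Eya4 was lower in adipocytes, at -3.29 ± 0.68 (adjusted p = 6.5e-04), and in endothelial nuclei, at -2.50 ± 0.86 (adjusted p = 0.0227). The fibroblast call was lost without taPVAT replicate 1 (log2 fold change 2.22, adjusted p = 0.0502) and without taPVAT replicate 2 (1.58, adjusted p = 0.0657). The endothelial call was lost without taPVAT replicate 1 (-2.61, adjusted p = 0.0942) and when nuclei needed 1000 genes (-2.08, adjusted p = 0.109). Between mural nuclei and fibroblasts the order depended on the tissue: mural nuclei were higher in both BAT libraries and fibroblasts in both taPVAT libraries, a difference that was not tested.

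**Figure D3:**
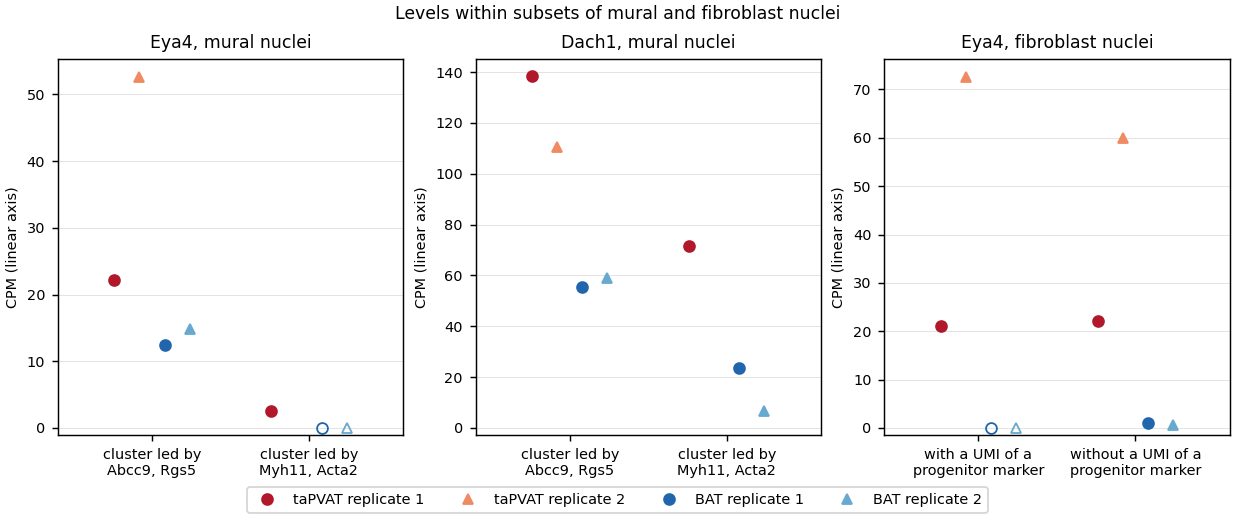
Eya4 and Dach1 in CPM within the 2 mural clusters, and Eya4 in fibroblast nuclei with and without a UMI of a progenitor marker, 1 symbol per library on linear axes, with open symbols for 0 UMIs. In the cluster led by Abcc9 and Rgs5 both taPVAT libraries lie above both BAT libraries for Eya4 and for Dach1, and taPVAT replicate 2 has no value in the cluster led by Myh11 and Acta2.

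Eya2, a coactivator active in muscle precursors and sensory placodes, marked stromal and vascular nuclei in both tissues. In fibroblasts it was at 216 and 368 CPM in taPVAT and at 274 and 199 CPM in BAT, and the tissues overlapped (log2 fold change 0.27 ± 0.39). The fibroblast mean of 264 ± 76.2 CPM (SD, n = 4) was above vascular endothelial nuclei at 123 ± 36.7 CPM in 4 of 4 libraries. Among the 8 classes with at least 20 nuclei in every library, mural nuclei followed at 54.2 ± 17.2 CPM and T or NK lymphocytes at 44.5 ± 5.52 CPM, 2 classes that overlapped. Against its fibroblast level Eya2 was at 18.7% to 21.4% in mural nuclei and 11.8% to 20.1% in T or NK lymphocytes, where the medians of 9 fibroblast markers were 6.21% to 11.2% and 1.32% to 5.89%. In both classes it was above the highest marker in the taPVAT libraries. In BAT it was below the highest marker in both classes. Schwann cell, myeloid and B lymphocyte nuclei were at 8.76 to 17.6 CPM on average, which was within the range of the fibroblast markers in each library. In myeloid nuclei, for example, Eya2 stood at 3.95%, 2.16%, 2.84% and 5.76% of its fibroblast level, and the median markers at 4.06%, 1.44%, 5.36% and 4.26%. Adipocytes were lowest at 1.58 ± 0.42 CPM, with 1.20 to 2.18 CPM in the 4 libraries. This was 0.328% to 1.01% of the fibroblast level, below the median fibroblast marker in all 4 libraries. Mesothelial nuclei, present only in taPVAT, held 115 and 166 CPM.

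Against the other main classes Eya2 was higher in fibroblasts by a log2 fold change of 3.43 ± 0.17 (adjusted p = 2.3e-09, edgeR) and in vascular endothelial nuclei by 2.14 ± 0.18 (adjusted p = 3.1e-07). It was lower in adipocytes by a log2 fold change of -6.02 ± 0.27 (adjusted p = 1.7e-09), and by -4.60 under a marker gate per nucleus. In mural nuclei it was not called (0.46 ± 0.20, adjusted p = 0.153). The classes were not uniform. Of the 3 endothelial clusters, the one led by Ccdc85a, Cdh13 and Flt1 held 112, 197, 210 and 155 CPM in the order taPVAT replicates 1 and 2, BAT replicates 1 and 2. The one led by Eln, Col8a1 and Dkk2 held 6.72 to 8.0 CPM, and the one led by Dnm3, Pgm5 and Vwf 13.2 to 50.7 CPM. The mural cluster led by Abcc9 held 45.4 to 80.6 CPM, and the one led by Myh11 at most 6.61 CPM. Eya2 was therefore uneven within both vascular classes. The tissue difference of Eya2 was -0.31 ± 0.40 in endothelial nuclei and 0.22 ± 0.37 in mural nuclei, with overlapping libraries in both.

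Eya3, the coactivator of the family with the broadest known expression, was even across most classes. In adipocytes it was at 96.0 and 81.6 CPM in taPVAT and at 106 and 74.3 CPM in BAT. In fibroblasts it was at 89.9 and 73.4 CPM against 111 and 60.9 CPM. The tissues overlapped in all 4 main classes, with fitted log2 fold changes from -0.11 in fibroblasts to 0.08 in mural nuclei. The means of 7 classes lay between 83.8 and 89.5 CPM, each overlapping the next. In myeloid nuclei, which hold the macrophages, Eya3 was at 159 and 187 CPM in taPVAT and 187 and 137 CPM in BAT. All 4 values lay above the highest value of any other class, 129 CPM from 8 UMIs in lymphatic endothelial nuclei of BAT replicate 1. The share of myeloid nuclei with a UMI of Eya3, thinned to 1000 UMIs, was 12.9% to 19.6%, and that of adipocytes 6.94% to 9.44%. In the other classes with at least 20 nuclei Eya3 was at 80.8% to 129% of its adipocyte level. Among the main classes Eya3 was called only in adipocytes, where it was higher by a log2 fold change of 0.20 ± 0.07 (adjusted p = 0.016). That call was lost when nuclei needed 1000 detected genes (0.14, adjusted p = 0.116).

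Eya3 and Eya4 thus had an even and a class-restricted pattern, and their promoters are printed for that reason. The sequences are from RefSeq, build GRCr8, from 250 bases before to 50 bases after the start of transcription, and RefSeq entries were found for 6 of the 9 genes. Capitals in Eya3 mark a match to the MEF3 motif of the sine oculis family, TCAGGTTTC, which lies on the minus strand and begins 122 bases before the start. Capitals in Eya4 mark a match to the TATA box letters TATAAA, which lies on the minus strand and begins 230 bases before the start. The Eya3 window is chr5:150137044-150137343 on the plus strand and the Eya4 window chr1:23991181-23991480 on the plus strand.
Eya3: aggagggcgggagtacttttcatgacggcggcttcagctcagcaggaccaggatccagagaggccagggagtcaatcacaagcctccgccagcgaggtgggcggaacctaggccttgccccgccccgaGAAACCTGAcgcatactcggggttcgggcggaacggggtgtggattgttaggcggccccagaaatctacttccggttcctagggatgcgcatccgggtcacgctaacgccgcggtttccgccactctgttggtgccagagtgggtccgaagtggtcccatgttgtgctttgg
Eya4: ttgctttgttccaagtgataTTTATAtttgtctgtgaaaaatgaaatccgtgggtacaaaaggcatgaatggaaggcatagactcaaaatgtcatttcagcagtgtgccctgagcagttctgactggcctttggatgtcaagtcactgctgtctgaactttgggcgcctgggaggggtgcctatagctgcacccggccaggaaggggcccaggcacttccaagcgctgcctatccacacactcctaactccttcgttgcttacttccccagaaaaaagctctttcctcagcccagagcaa
Both motifs were searched on both strands in all promoter windows, and they do not overlap each other here. TCAGGTTTC was in 0.451% of the 33469 promoters of the same length and in none of the other members with an entry. TATAAA was in 14.2% of promoters. The Eya3 window had a GC content of 62.3% with 23 CpG dinucleotides, and the Eya4 window 49.7% with 5. The median of all promoters was 51.7% with 7. A match is a string of letters and says nothing of binding.

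The sine oculis family genes, whose products carry the Eya proteins to DNA, were low. Six4, which acts in muscle precursors, was at 5.43 and 6.71 CPM in taPVAT adipocytes and at 5.96 and 8.45 CPM in BAT adipocytes, and the tissues overlapped (log2 fold change -0.21 ± 0.36). It had the highest mean in adipocytes, 6.64 ± 1.32 CPM (SD, n = 4), and among the same 8 classes the lowest in vascular endothelial nuclei, 1.91 ± 1.29 CPM. The small lymphatic endothelial and mesothelial classes had 1 and 3 UMIs of Six4 in all. Against the other main classes it was higher in adipocytes by a log2 fold change of 1.19 ± 0.22 (adjusted p = 3.4e-04, edgeR), which fell to 0.53 (adjusted p = 0.0145) under the marker gate. Outside adipocytes Six4 was at 0% to 101% of its adipocyte level, and the median of the adipocyte markers was at 31.9% to 85.2%. In endothelial nuclei it was lower (-0.97 ± 0.34, adjusted p = 0.0246), a call lost when nuclei needed 1000 genes (-0.38), under the marker gate (-0.28), and without either BAT library.

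Six5, which lies beside Dmpk and is known from the myotonic dystrophy locus, had 23 and 12 UMIs in taPVAT adipocytes and 37 and 17 in BAT adipocytes. Its levels of 0.236 and 0.241 CPM lay below 0.339 and 0.287 CPM in BAT, but the ratio of the pooled levels was 0.741 with a counting interval of 0.470 to 1.16. In the other main classes it had 0 to 3 UMIs per library. Six2, known from kidney progenitors, had 0 to 2 UMIs in any class and library. In taPVAT fibroblasts it had 0 UMIs and in BAT fibroblasts 1 in each library. In adipocytes it had 0 and 1 UMIs in taPVAT and 2 and 0 in BAT, at most 0.0201 CPM.

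Dach1 was a vascular endothelial gene in both tissues. Dach1, a corepressor known for coronary artery growth, was at 1451 and 1225 CPM in endothelial nuclei of taPVAT and at 1697 and 1116 CPM in those of BAT. The tissues overlapped (log2 fold change -0.11 ± 0.36), and the endothelial mean was 1372 ± 258 CPM (SD, n = 4). Mural nuclei came next with 85.3 ± 41.3 CPM, and the classes did not overlap. Against the other main classes Dach1 was higher in endothelial nuclei by a log2 fold change of 5.58 ± 0.28 (adjusted p = 1.1e-09, edgeR) and lower in adipocytes by -4.65 ± 0.40 (adjusted p = 3.1e-07), the latter being -3.24 under the marker gate. After thinning to 1000 UMIs, 52.4% to 67.3% of endothelial nuclei had a UMI of Dach1. The endothelial cluster led by Ccdc85a, Cdh13 and Flt1 had the highest level, 1949, 1377, 2184 and 1376 CPM, and the clusters led by Eln and by Dnm3 had 393 to 888 CPM. Dach1 thus varied within the endothelium, least in taPVAT replicate 2 (1377, 888 and 677 CPM), but was far above the other classes in each cluster.

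In mural nuclei Dach1 was at 131 and 109 CPM in taPVAT and at 48.8 and 52.0 CPM in BAT, and the tissues did not overlap. The fitted log2 fold change was 1.24 ± 0.27, and it was 0.84 to 1.91 under the other settings and with each library left out. Endothelial RNA was present in these nuclei. Dach1 stood at 9.05% and 8.91% of its endothelial level in taPVAT mural nuclei, and the medians of 11 endothelial markers were 6.38% and 1.74%. In taPVAT replicate 2 the highest endothelial marker was at 5.58%, below Dach1, and in taPVAT replicate 1 it was at 13.1%. In BAT mural nuclei Dach1 stood at 2.88% and 4.66%, within the marker ranges of 2.46% to 7.59% and 3.96% to 10.7%. In the cluster led by Abcc9 and Rgs5 Dach1 was at 139 and 111 CPM in taPVAT and at 55.6 and 58.8 CPM in BAT, so the tissue difference was present there too. How much of the difference is due to endothelial RNA was not tested.

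In fibroblasts Dach1 was at 72.8 and 35.1 CPM in taPVAT and at 64.1 and 37.2 CPM in BAT. This was 2.87% to 5.02% of the endothelial level, and the median endothelial marker was at 1.63% to 5.57%. Fibroblasts with a UMI of a progenitor marker held more Dach1 in each library, a look added after the data were seen. Their levels were 99.7 and 46.1 CPM in taPVAT and 162 and 82.4 CPM in BAT. Without such a UMI they were 48.1 and 29.0 CPM against 43.1 and 23.2 CPM. The difference was not tested. Against the other classes Dach1 in fibroblasts was lower (-0.97 ± 0.34, adjusted p = 0.0471, edgeR), a call lost in 5 of 10 alternatives, with adjusted p from 0.0558 to 0.151. In adipocytes Dach1 was at 16.2 and 1.85 CPM in taPVAT and 6.46 and 5.41 CPM in BAT. The taPVAT libraries lay on either side of the BAT libraries, and the log2 fold change of 0.62 ± 0.88 turned to -1.64 without taPVAT replicate 1. As a share of the endothelial level these were 1.12%, 0.151%, 0.381% and 0.484%, and the median endothelial marker was at 1.13%, 0.336%, 0.556% and 0.810%. The Dach1 of adipocyte nuclei was thus at or below the level of the median endothelial marker in all 4 libraries.

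Dach2 was low. It had 10, 4, 8 and 5 UMIs in adipocytes, which are 0.103 and 0.0803 CPM in taPVAT and 0.0732 and 0.0845 CPM in BAT, and the tissues overlapped. It had 1, 0, 7 and 4 UMIs in vascular endothelial nuclei, and 0 to 4 in any other class and library. In endothelial nuclei these are 0.225 and 0 CPM in taPVAT and 2.32 and 1.5 CPM in BAT. The observed levels did not overlap there, and the ratio of the pooled levels was 0.0957 (counting interval 0.00222 to 0.659). The count of 0 in taPVAT replicate 2 allows up to 3.19 CPM, above both BAT levels. A lower level in taPVAT thus rests on replicate 1. Dach2 did not pass the filter on low counts in endothelial nuclei. Among the 8 classes with at least 20 nuclei in every library, its mean was highest in T or NK lymphocytes. It was 2.08 ± 0.57 CPM there (SD, n = 4), from 4, 2, 3 and 2 UMIs.

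**Figure D4:**
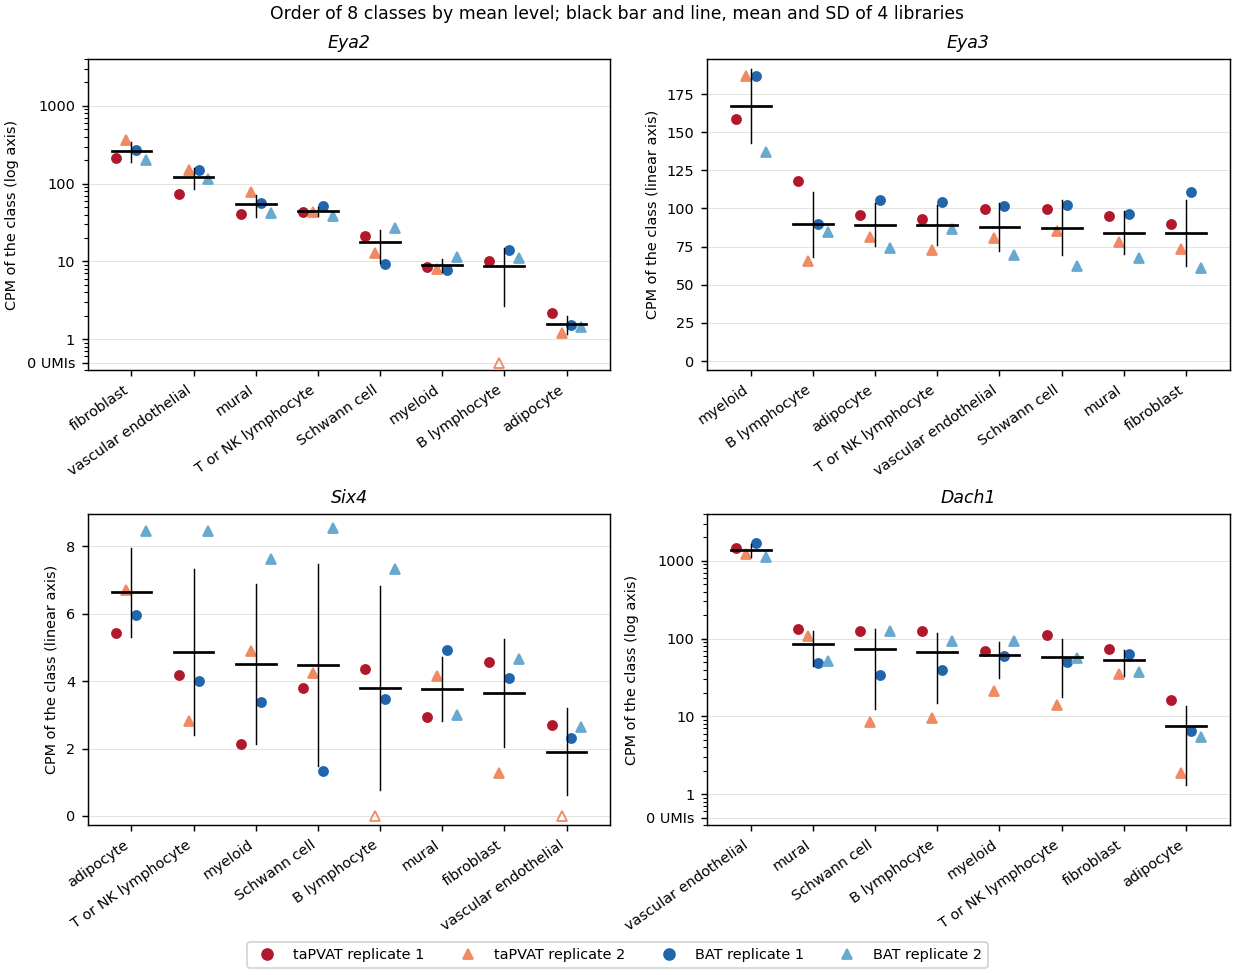
Eya2, Eya3, Six4 and Dach1 in CPM for 8 classes ordered by their mean, 1 symbol per library, with the mean and SD of 4 libraries in black. The axes of Eya2 and Dach1 are logarithmic and those of Eya3 and Six4 linear, and the first class stands clear of the next for Eya2, Eya3 and Dach1 but not for Six4.

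**Figure D5:**
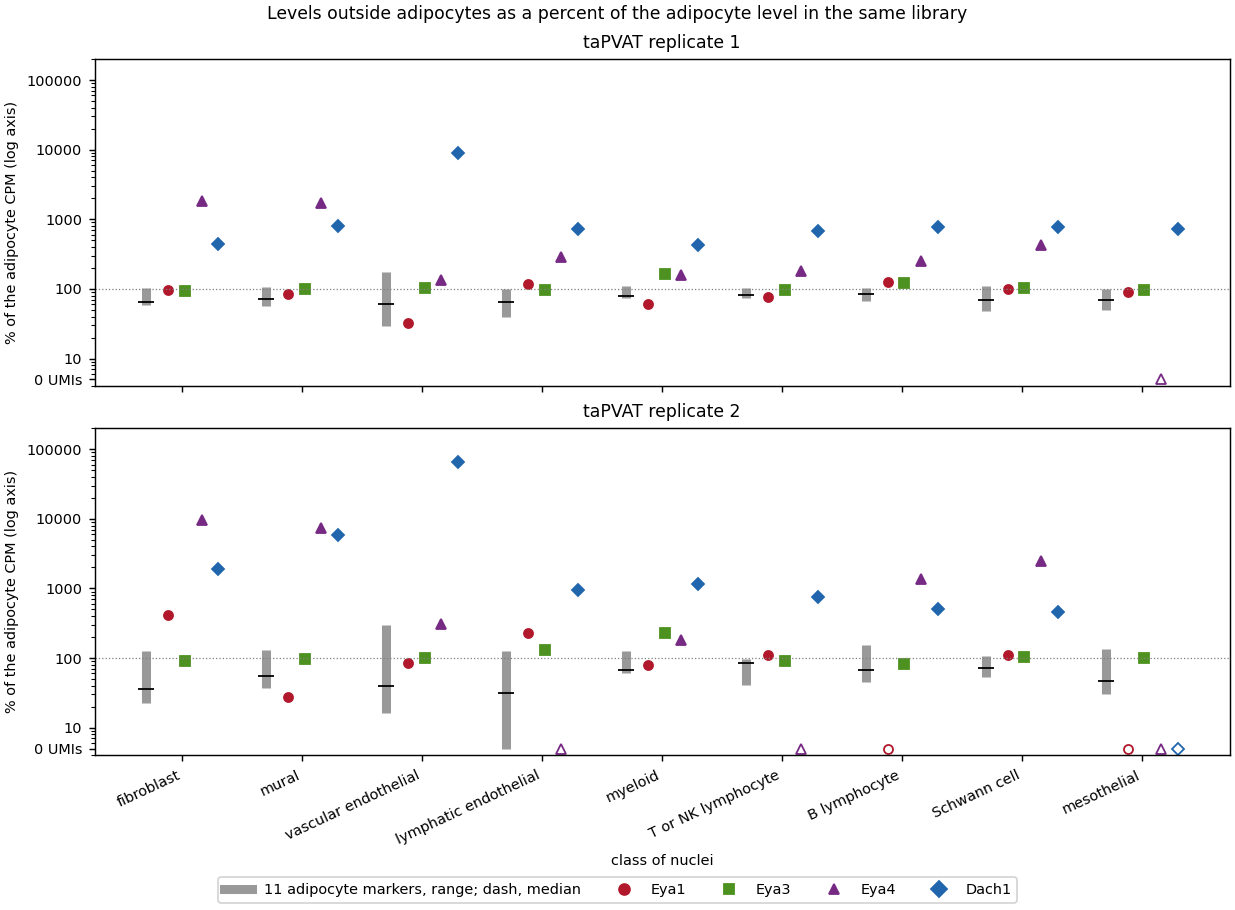
Level of Eya1, Eya3, Eya4 and Dach1 in 9 classes of taPVAT nuclei as a percent of the adipocyte level in the same library, on a log axis, beside the range and median of 11 adipocyte markers. Eya1 is at 32.4% to 124% in replicate 1 and at 419% in the fibroblasts of replicate 2, while Eya4 is above it in fibroblasts and mural nuclei of both libraries.

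In adipocytes 7 of 9 passed the filter, and Eya1 and Eya4 were higher and Six5 lower in taPVAT without overlap. Of all 15496 genes tested there, 20.3% had libraries that did not overlap, 9.49% with taPVAT higher and 10.8% with taPVAT lower. In fibroblasts 6 of 9 passed and Eya1 and Eya4 did not overlap, where 25.4% of 11102 genes did not, 15.7% with taPVAT higher and 9.65% lower. In mural nuclei 5 of 9 passed and Eya4 and Dach1 did not overlap, with 25.8% of 10446 genes, 13.6% higher and 12.2% lower. In vascular endothelial nuclei 3 of 9 passed and all 3 overlapped, with 20.6% of 10614 genes not overlapping, 12.7% higher and 7.88% lower. The members were chosen on this contrast, so the counts carry no weight as support. At an adjusted p under 0.05 the edgeR fit called 0 genes in adipocytes, although 331 lay under 0.05 before adjustment and DESeq2 found 58. It called 3 genes in fibroblasts (0.027%), 1 in mural nuclei (0.00957%) and 0 in vascular endothelial nuclei, where 115 lay under 0.05 before adjustment and DESeq2 found 2.

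In the class contrasts 6 of 9 genes could be tested. In adipocytes Eya3 and Six4 were called higher and Eya2, Eya4 and Dach1 lower, where 68.1% of all genes were called, 33.6% higher and 34.5% lower. In fibroblasts Eya2 and Eya4 were higher and Dach1 lower, with 27.3% of all genes called, 15% higher and 12.3% lower. The Eya4 call there rests on the taPVAT libraries and does not describe BAT fibroblasts. In mural nuclei Eya4 was higher, with 17.8% called, 12.8% higher and 5.09% lower. In vascular endothelial nuclei Eya2 and Dach1 were higher and Eya1, Eya4 and Six4 lower, with 58% called, 29% higher and 29% lower. The Eya1 call there also rests on the taPVAT libraries. It does not describe BAT, whose endothelial nuclei held 1 and 0 UMIs of Eya1.

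Myeloid and T or NK lymphocyte nuclei were not used to choose the genes, and there the tissue difference was tested. In myeloid nuclei 4 of 9 genes passed the filter, Eya2, Eya3, Six4 and Dach1. None was called and none had libraries that did not overlap, against 20.1% of 10647 genes, 9.22% higher and 10.8% lower. In T or NK lymphocyte nuclei Eya2, Eya3 and Dach1 passed, and again none was called or free of overlap, against 22.2% of 9395 genes, 10.9% higher and 11.3% lower. The edgeR test called 0 genes in either class, with 133 and 131 at an unadjusted p under 0.05 and 1 and 2 called by DESeq2. Eya3, for example, differed by a log2 fold change of 0.10 ± 0.26 in myeloid nuclei (adjusted p = 1). Eya1 did not pass the filter but had 30 and 5 UMIs in taPVAT myeloid nuclei and 0 in both BAT libraries, and 22 and 3 against 0 in T or NK lymphocytes. These levels of 9.16, 3.06, 11.5 and 4.22 CPM stood at 59.9%, 80.3%, 75.5% and 111% of the adipocyte level. The first is below the lowest adipocyte marker of those nuclei (73.2%), the last is above the highest (95.5%), and the others are within the marker range. The counting intervals of the first and last, 6.18 to 13.1 and 0.869 to 12.3 CPM, both reach into the marker range.

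Of 37 other genes of the network, all were in the gene tables and 20 passed the filter in adipocytes. There 1 was higher in taPVAT without overlap, Pax9, and 5 were lower, Tle1, Tle3, Tle4, Dmrt2 and Ccna1, where 9.49% and 10.8% of all genes tested were higher and lower without overlap. The median log2 fold change of the 20 was -0.14, against 0.00 for all genes. Pax9, a paired-domain factor of the family that often acts upstream in this network, was at 0.564 and 0.622 CPM in taPVAT adipocytes and at 0.0183 and 0.0338 CPM in BAT adipocytes (log2 fold change 4.56 ± 0.61). Its BAT levels rest on very few UMIs: that of replicate 1 equals the level of Six2 there, from 2 UMIs. The size of the Pax9 fold is therefore uncertain. Dmrt2, a somite factor downstream of Pax3, was at 0.267 and 0.361 CPM against 2.12 and 10.8 CPM (-4.36 ± 0.91). Ccna1, a cyclin reported as a target of the network, was at 0.205 and 0.161 CPM against 0.348 and 0.270 CPM. Neither Pax9 nor Dmrt2 was called by edgeR in this fit.

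In fibroblasts 16 of the 37 passed the filter. In mural nuclei 4 of 16 were lower without overlap, Skil, Tle3, Meox2 and Tcf15, and none was higher, against 12.2% and 13.6% of all genes. Skil, a Ski family corepressor, was at 48.0 and 42.6 CPM in taPVAT against 48.8 and 72.7 CPM, and Tle3, a Groucho corepressor, at 46.1 and 48.8 CPM against 64.0 and 58.1 CPM. Tcf15, a somite factor, was at 8.04 and 9.35 CPM against 10.6 and 12.0 CPM. In vascular endothelial nuclei 2 of 16, Sin3a and Tle3, were lower without overlap, against 7.88% of all genes, with Sin3a, a corepressor scaffold, at 54.6 and 52.1 CPM against 69.4 and 62.0 CPM. Tle3 was there at 45.2 and 39.3 CPM against 52.8 and 50.4 CPM. The median log2 fold changes of the list were -0.10 in fibroblasts, -0.11 in mural and -0.09 in endothelial nuclei, with -0.01, 0.01 and 0.00 for all genes.

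Between classes, 17 of the 37 network genes could be tested in the fit over the 4 main classes. In adipocytes 9 were called higher, Sobp and Dmrt2 among them, and 5 lower, with Meox2 and Tcf15 among these, where 68.1% of all genes were called. In fibroblasts 3 were higher, Tle4 and Sobp among them, and 6 lower, where 27.3% of all genes were called. In mural nuclei 4 were higher and 2 lower (17.8% of all genes called), and in vascular endothelial nuclei 7 were higher and 4 lower (58% called). Meox2, a somite and vascular homeobox factor, was at 440 to 645 CPM in endothelial nuclei and at 1.10 to 5.83 CPM in adipocytes. Between the tissues, 15 of the 37 passed the filter in myeloid nuclei and 14 in T or NK lymphocytes. The edgeR test called none of them, and it called 0 of all genes in either class. Without overlap, 2 of the 15 were lower in myeloid nuclei, Tle3 among them, and 0 higher, against 10.8% and 9.22% of all genes. In T or NK lymphocytes 4 of the 14 were lower, Tle1, Tle3 and Tle4 among them, and 1 higher, Sobp, against 11.3% and 10.9%.

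The 3 members with the widest range over classes were Dach1, Eya2 and Eya4. Over 36 sums of 10 classes and 8761 genes, the genes most like Dach1 were Prom1 (Pearson r = 0.91), Sox17 (0.90), Cmtm8 (0.87), Cyyr1 (0.87) and Zfp366 (0.87). Those most like Eya2 were Pcdh19 (0.87), Scarf2 (0.86), Runx1t1 (0.85), Ntf3 (0.85) and Csf1 (0.85). Those most like Eya4 were Gucy1a2 (0.75), Gpr176 (0.71), Ssc5d (0.69), Il34 (0.68) and Cyp4f17 (0.68), and the likeness was weaker. Sums of 1 library share its droplets and its depth, so these correlations are a description without a test. Cyyr1 is also among the markers that named the endothelial class, and Gucy1a2 and Gpr176 were among the leading genes of the mural cluster led by Abcc9.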

How the data were processed

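The libraries, 2 of taPVAT and 2 of BAT, hold RNA of single nuclei (10x Genomics 3' chemistry). The authors deposited raw UMI counts per gene and barcode, made with Cell Ranger 7.1.0 per the file headers and the submitters' processing notes, which name build Rnor_6.0. Whether introns were counted, and the annotation release, is not given in the sources used here.

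Nuclei with at least 500 genes were kept. Scrublet's own threshold failed in 1 BAT library, so in every library nuclei were removed by score up to 0.5 of the expected rate of 0.8% per 1000 nuclei (7389, 609, 4776 and 2871 in taPVAT replicates 1 and 2 and BAT replicates 1 and 2). Clustering (scanpy 1.11.5, 3000 variable genes, 30 components, 15 neighbours, Leiden resolution 1, no integration) kept the 9 genes and 37 network genes out and gave 27 clusters, which were named from marker lists with thresholds set on these data. Several adipocyte clusters held mostly 1 library. Raw counts were summed per class and library and fitted with edgeR 4.0.16 (quasi-likelihood test, TMM, filterByExpr, Benjamini-Hochberg adjustment) in R 4.3.3. Each SE is the absolute log2 fold change divided by the root of the F statistic, whose dispersion is moderated over genes. The class contrasts came from 1 fit with class and library terms, which assumes the same class difference in both tissues. DESeq2 1.42.0, other scalings, filters, a marker gate and leaving out each library were the alternatives. An exact permutation test of 2 against 2 libraries cannot go below p = 0.333. Values are given for up to 3 network genes per class, those with the largest fold changes among genes whose libraries did not overlap; other network genes with values were chosen after these were seen. The members and lists were chosen with earlier results of these data known. Results for 1 gene of the network list are not reported here.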

Additional observations from a re-analysis of the deposited data

How the results depend on the processing

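The counts of genes called between the tissues moved with the settings. In adipocytes DESeq2 called 58, the fit with no filter on low counts 17 and the fit with a replicate block 308, and leaving out 1 library gave 0 to 112. In fibroblasts these were 68, 186, 264 and 42 to 94, with 0 under the marker gate. In mural nuclei they were 12, 81, 158 and 1 to 84, with 0 without doublet removal, 0 at 1000 genes per nucleus and 0 under the gate. In vascular endothelial nuclei they were 2, 24, 13 and 0 to 27, in myeloid nuclei 1, 38, 36 and 0 to 19, and in T or NK lymphocytes 2, 20, 53 and 0 to 27. Fibroblasts against the other 3 classes had 2178 calls at 1000 genes per nucleus, against 3303. Leaving out 1 library gave 7402 to 8100 calls for adipocytes, 2205 to 2711 for fibroblasts, 1524 to 2048 for mural and 5843 to 7053 for vascular endothelial nuclei. Eya1 in endothelial nuclei against the other classes ran from -1.5 to 0.024 with 1 library left out, the latter without taPVAT replicate 1. Of the class contrasts of the 6 genes that could be tested, under the alternatives, 214 stayed on the same side of the threshold, 17 lost a call with the sign kept, 8 gained one, and 1 lost its call at a value near 0, that of Eya1 just given. None was called in the opposite direction. The causes were not tested. The labels do not pair the replicate numbers, and deviations of same-numbered libraries correlated at 0.41 to 0.65 over 6 classes, with only 2 pairs, so the replicate block is given as a hint alone. Six2 in every class, and Dach2 and Six5 outside adipocytes, had too few UMIs per library for a usable level. Neither Six2 nor Dach2 passed the filter on low counts in any tissue fit.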
